A study of Rattus norvegicus with 6 samples.

Results

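The genes described here are Ucp1, Ucp2, Ucp3, Cidea and Dio2, measured in the aorta of rats that ran and rats that did not. They were taken as every probe set whose only gene symbol in the platform annotation is one of these names, which gave 8 of the 8799 probe sets on the chip, for 5 of its 4736 named genes. Ucp1, Ucp2 and Ucp3 had 2 probe sets each, and Cidea and Dio2 had 1 each; probe sets of a gene were kept apart.

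All animals were spontaneously hypertensive rats (SHR), an inbred line used as a model of high blood pressure. Runners had a wheel in the cage and exercised voluntarily for 5 weeks, and the control animals did not run. Total RNA from whole aortic tissue was hybridised to 3 arrays per group, called A, B and C here, each carrying a pool of 3 aortae. The labels give no age or sex, do not say whether fat around the vessel was trimmed off, and are silent on how animals were assigned to pools, so a p-value here reflects the spread between pools alone, part of which can be technical. In such bulk RNA, fewer cells of a type and less RNA per cell cannot be told apart.

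Brown adipocytes burn fat to make heat. UCP1, in their inner mitochondrial membrane, lets protons flow back without making ATP, and fatty acids set free after noradrenaline reaches beta-adrenergic receptors both open the protein and fuel it. CIDEA is a lipid droplet protein that is abundant in brown fat, and DIO2 converts thyroxine to the active thyroid hormone inside the cell, which raises Ucp1 transcription. UCP2 and UCP3 are related carriers with wider roles: UCP2 is found in many tissues and in immune cells, and UCP3 in skeletal muscle, heart and brown fat. The fat around the thoracic aorta of rodents is known to resemble brown fat.

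Values are intensities on a linear scale. The level reached by control probe sets that should find no rat target, 40.8 at their 95th percentile, served as the control level. Smooth muscle markers, which define the vessel wall, lay above it on all arrays for 10 of the 10 genes measured. Array medians were 28.5 to 32.2. Non-runner B stood apart: the ratio of 3' to 5' beta-actin signal, a sign of RNA degradation when high, was 2.14 there against 1.22 to 1.67 for the rest. The mean of the adipocyte markers was also lowest on non-runner B.

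The start regions of Ucp1 and Ucp3 are shown because both probe sets of each gene were lowest, after normalization, on the same 2 pools, non-runner B and runner C. In the deposited intensities this did not hold for Ucp3 AF035943_at, with 61.9 on runner C, 59.7 on runner A and 60.8 on non-runner A. Ucp3 AF030163_s_at was under the control level on both pools (27.1 and 31.8). Ucp2 is the neighbouring protein-coding gene of Ucp3, with 0 such genes between them in the GRCr8 annotation. All 5 genes matched the RefSeq promoter table of build GRCr8, which gives 250 bases before to 50 after each start. Capitals mark matches on either strand to TATAAA (the box near the start of many genes), CCAAT (a common promoter element), TGACG (part of a cyclic AMP response element, through which adrenergic signals can act) or AGGTCA (a half-site of nuclear receptors such as PPARs and thyroid hormone receptors). Ucp1 lies at chr19:41721372-41721671, minus strand, and Ucp3 at chr1:164227660-164227959, plus strand; both are printed 5′ to 3′ along the gene.
Ucp1: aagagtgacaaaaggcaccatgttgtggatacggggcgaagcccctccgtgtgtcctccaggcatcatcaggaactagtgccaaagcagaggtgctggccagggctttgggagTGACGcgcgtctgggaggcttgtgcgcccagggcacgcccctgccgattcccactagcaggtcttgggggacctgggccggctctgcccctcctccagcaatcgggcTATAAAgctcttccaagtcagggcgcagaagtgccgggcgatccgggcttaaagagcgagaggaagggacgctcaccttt
Ucp3: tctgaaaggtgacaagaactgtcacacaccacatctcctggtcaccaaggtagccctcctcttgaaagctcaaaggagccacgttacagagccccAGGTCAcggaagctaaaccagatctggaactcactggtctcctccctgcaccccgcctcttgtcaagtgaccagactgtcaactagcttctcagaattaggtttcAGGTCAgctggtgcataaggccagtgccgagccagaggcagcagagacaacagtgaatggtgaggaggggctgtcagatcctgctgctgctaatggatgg
The Ucp1 window held TATAAA beginning 30 bases before the start and TGACG 137 bases before it. The Ucp3 window held AGGTCA 155 and 50 bases before its start, and the Ucp2 window had 0 matches to any of the motifs. Of 33469 rat promoter windows of this length, 14.2% held TATAAA, 21.2% TGACG, 16.2% AGGTCA and 37.5% CCAAT, so such matches are common. A match is a description of the letters and not a bound site, and the known Ucp1 enhancer lies upstream of this window.

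Ucp1 signal was clear in every pool and did not separate the groups. Probe set A04674cds_s_at measured 1407.2, 764.3 and 1582.3 on non-runners A, B and C, and 1191.4, 1528.8 and 880.8 on the corresponding runner arrays. The low arrays were non-runner B and runner C, 1 in each group, and the runner values lay wholly inside the non-runner range. The group means were 1251 ± 431 without and 1200 ± 324 with running (SD, n = 3). The log2 difference, runner minus non-runner, was -0.014 ± 0.30 (SE), with a 95% interval from -0.71 to 0.68 and a limma adjusted p = 0.99. Expressed as a ratio, that interval runs from 0.611 to 1.61. The spread between pools of the same group was therefore larger than the difference between groups, and the highest Ucp1 array was 2.07 times the lowest. The sign of the difference depended on single pools: it was 0.11 without non-runner A, 0.18 without non-runner C and 0.17 without runner C (log2), and -0.33 without non-runner B and -0.20 without runner B.

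The other Ucp1 probe set, X03894_at, gave a similar picture. It measured 684.3, 500.8 and 868.5 in non-runners A, B and C and 674.1, 766.4 and 483.4 in runners. Non-runner B and runner C were again the low arrays. The log2 difference was -0.090 ± 0.24 (SE), with a 95% interval from -0.64 to 0.46 and a limma adjusted p = 0.936, and it was 0.084 without non-runner C and 0.082 without runner C.

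**Figure D1:**
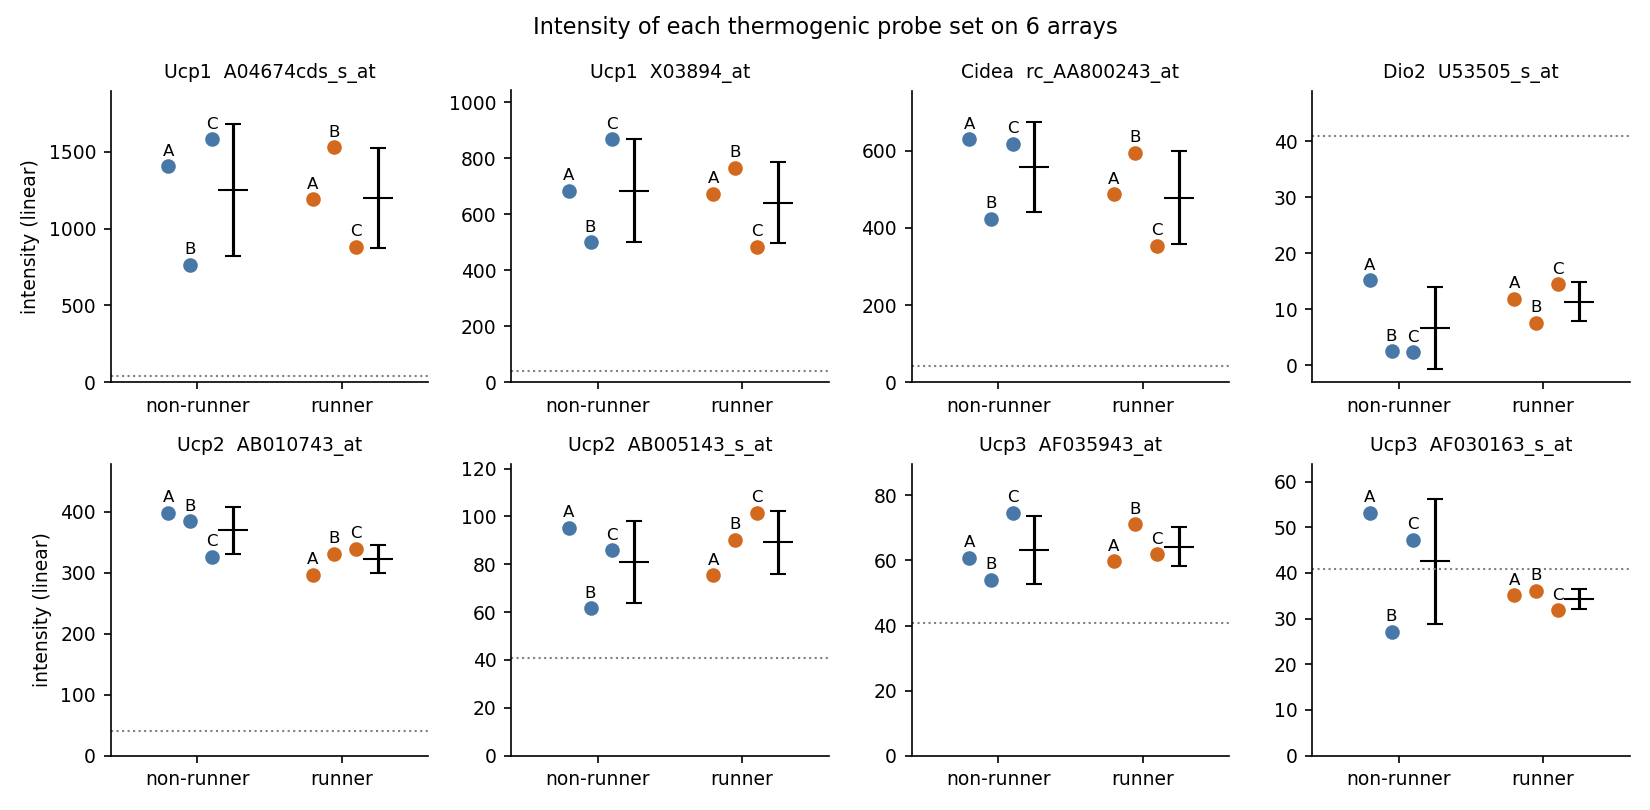
Intensity (linear scale) of the 8 probe sets on each array; blue points are non-runner pools and orange points runner pools, lettered A to C, with the group mean and SD in black and the control level of 40.8 as a dotted line. For both Ucp1 probe sets and Cidea, non-runner B and runner C are the low arrays, and all 6 Dio2 values lie under the control level.

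Cidea, the lipid droplet protein, was low on the same pools as Ucp1. Its probe set, rc_AA800243_at, measured 630.2, 424.2 and 618.8 in non-runners A, B and C and 486.7, 595.2 and 353.5 in the runner pools. Runner C was the lowest array and non-runner B the next, and the groups overlapped. Means were 558 ± 116 and 478 ± 121 (SD, n = 3), and the log2 difference was -0.23 ± 0.24 (SE), with a 95% interval from -0.78 to 0.32 and a limma adjusted p = 0.802. The difference was -0.035 without runner C, -0.40 without non-runner B and -0.42 without runner B.

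Dio2, the deiodinase, had no established signal. Its probe set, U53505_s_at, measured 15.2, 2.5 and 2.3 in non-runners and 11.9, 7.6 and 14.5 in runners, all under the control level of 40.8. It was among the dimmest 40% of probe sets that were left out of the test, and no difference is given. An array value this low does not show that the transcript is absent.

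The 2 probe sets of Ucp2, the widely expressed relative, differed in sign, and neither passed the test. Probe set AB010743_at measured 398.5, 384.3 and 326 in non-runners and 296.9, 330.9 and 339.4 in runners. The runner values lay toward the lower end, but 2 of them exceeded non-runner C. The log2 difference was -0.21 ± 0.16 (SE), with a 95% interval from -0.57 to 0.15 and a limma adjusted p = 0.752. Probe set AB005143_s_at measured 95.3, 61.7 and 85.8 in non-runners and 75.5, 90.3 and 101.6 in runners. Its low array was non-runner B, and the difference was 0.14 ± 0.20 (log2, SE; 95% interval -0.32 to 0.60, limma adjusted p = 0.865). It turned to -0.044 without non-runner B.

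Ucp3 was near the control level. Probe set AF035943_at measured 60.8, 54.1 and 74.7 in non-runners and 59.7, 71.2 and 61.9 in runners, above that level on all arrays. The groups overlapped, with a log2 difference of 0.019 ± 0.18 (SE), a 95% interval from -0.39 to 0.42 and a limma adjusted p = 0.979. The sign turned when an array was left out, to -0.015 (non-runner A), -0.081 (non-runner B) and -0.059 (runner B), and to -0.020 with arrays centred on their medians. Probe set AF030163_s_at measured 53.2, 27.1 and 47.3 in non-runners and 35.1, 36.1 and 31.8 in runners. Only non-runners A and C were above the control level there, so the fitted difference of -0.28 ± 0.24 (log2, SE; limma adjusted p = 0.774) rests on values that are mostly not above it. It moved to -0.54 without non-runner B (95% interval -0.89 to -0.18, unadjusted p = 0.00939 and adjusted p = 0.435 from limma) and to -0.13 without non-runner A. With array quality weights it was -0.44 and with the beta-actin ratio as a covariate -0.58, with limma adjusted p of 0.414 and 0.846; both intervals, -0.83 to -0.054 and -1.15 to -0.018, also left out 0.

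Of the 7 member probe sets tested, 0 passed limma's test at an adjusted p under 0.05, in a comparison where 0% of 5244 probe sets passed. At an unadjusted p under 0.05 the count was 0 of 7, against 8.09% of all probe sets. Groups failed to overlap for 0 of 7, against 14.9%. A lower mean in runners was fitted for 5 of the 7, with a median log2 difference of -0.090, beside -0.0041 over all probe sets tested; 2 of the 7 and 49.5% of all were above 0. The intervals are wide, so these results do not show that the groups are alike.

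**Figure D2:**
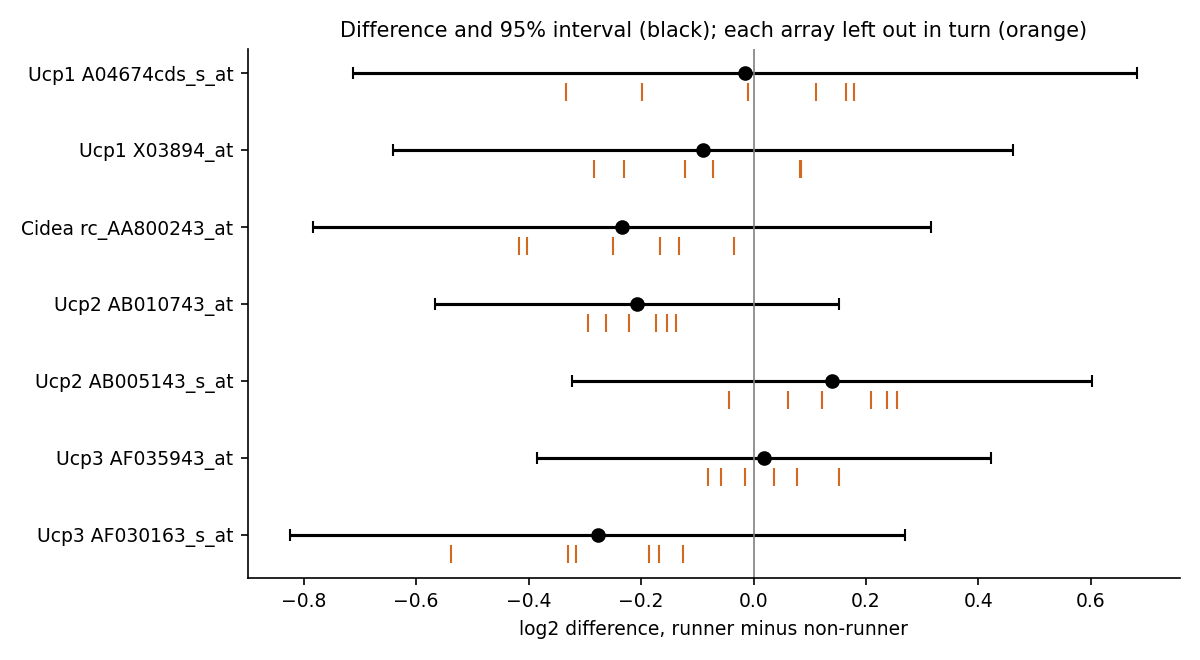
Log2 difference, runner minus non-runner, of the 7 tested probe sets: black points and bars are the limma estimate and its 95% interval over 6 arrays, and orange ticks the estimate with each array left out in turn. All 7 intervals include 0, and the ticks fall on both sides of 0 for both Ucp1 probe sets, for AB005143_s_at of Ucp2 and for AF035943_at of Ucp3.

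The levels of the members were also set against Ucp1 A04674cds_s_at from pool to pool. In 6 relations, the other Ucp1 probe set and Ucp3 AF035943_at passed at an adjusted p under 0.05 by Pearson r. Cidea and the rest did not. With no normalization 0 of 6 passed, and with median centring the other Ucp1 probe set, Ucp3 AF035943_at and Cidea passed. Over the 6 arrays, the 2 Ucp1 probe sets had a Pearson r = 0.944 (exact permutation p = 0.00833, adjusted p = 0.0333 over the 6 relations computed) and a Spearman rho = 0.943 (exact permutation p = 0.0167, adjusted 0.05). Both report the same transcript. Ucp1 A04674cds_s_at and Cidea had r = 0.863 (exact permutation p = 0.0472, adjusted 0.0708) and rho = 0.771 (exact permutation p = 0.103, adjusted 0.204). Ucp1 and Ucp3 AF035943_at had r = 0.843 (exact permutation p = 0.0111, adjusted 0.0333) and rho = 0.943 (exact permutation p = 0.0167, adjusted 0.05). With no normalization the adjusted permutation p of that relation was 0.0583, as was that of the Ucp1 pair. With median centring it was 0.0333 for the Ucp1 pair, for Ucp3 AF035943_at and for Cidea. For Ucp3 AF030163_s_at, r was 0.831 (exact permutation p = 0.0389, adjusted 0.0708; rho = 0.714, exact permutation p = 0.136, adjusted 0.204).

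For Ucp2 neither relation to Ucp1 passed, and whether it differs from those of Ucp3 was not tested. It was r = -0.30 for AB010743_at (exact permutation p = 0.544, adjusted 0.544; rho = -0.31, p = 0.564, adjusted 0.677) and r = 0.584 for AB005143_s_at (exact permutation p = 0.264, adjusted 0.317; rho = 0.2, p = 0.714, adjusted 0.714). Leaving out the 2 arrays farthest from the Ucp1 median, non-runner B and runner C, gave r = 0.843 with X03894_at, 0.884 with Cidea and 0.705 with Ucp3 AF035943_at. With Ucp3 AF030163_s_at it gave 0.404, against 0.831 over all 6 arrays, a drop that was not tested. It gave 0.457 with Ucp2 AB010743_at and 0.81 with Ucp2 AB005143_s_at. After each group's mean was subtracted, r was 0.953 for X03894_at, 0.928 for Cidea, 0.845 for Ucp3 AF035943_at, 0.92 for Ucp3 AF030163_s_at, -0.42 for Ucp2 AB010743_at and 0.621 for Ucp2 AB005143_s_at.

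Fat content was read on the same arrays from 16 adipocyte markers, such as Scd, a fatty acid desaturase, and Lpl, lipoprotein lipase. Their mean centred log2 level lay between 0.067 and 0.18 on 5 arrays, runner C (0.13) among them, and was -0.59 on non-runner B. Ucp1 stood at -0.63 on non-runner B and -0.37 on runner C. So on non-runner B Ucp1 and the mean of the fat markers were both low, while on runner C Ucp1 was low and that mean was not. In the deposited intensities Lpl, Lep, Dgat1 and Agt were lowest on a runner array, and the other fat markers on non-runner B. The summed intensity of the 16 markers ran from 6077 to 7681 in non-runners and 7298 to 8332 in runners, the highest on runner C. Scd, the brightest of them, weighs heavily in that sum. It measured 2674, 2645.2 and 2880 in non-runners and 3451.9, 2992.2 and 3623.2 in runners, also highest on runner C. For 3 of the 16, Plin1, Cd36 and Cebpa, the lowest values after normalization were on non-runner B and runner C. Above the control level on all arrays were 12 of the 16, and Plin1, a lipid droplet coat protein, was under it on all. Red blood cell markers, 3 genes led by beta-globin (Hbb), had their highest summed intensity, 4402, on runner C. The sum was 1416, 1910 and 1446 on non-runners A, B and C and 2138 and 2131 on runners A and B. Groups did not overlap for 2 of these 3 markers (66.7%), against 14.9% of all probe sets, and 0 passed limma's test at an adjusted p under 0.05. Their part in the Ucp1 level, and that of the RNA quality of non-runner B, was not tested.

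Within each array, Ucp1 A04674cds_s_at minus the mean log2 level of the adipocyte markers was 2.65, 2.46 and 2.72 in non-runners A, B and C and 2.42, 2.77 and 2.0 in the runner pools. Runner C was the low array, and the groups overlapped. The means, 2.61 ± 0.13 and 2.40 ± 0.39 (SD, n = 3), differed by -0.21 (two-sided exact permutation p = 0.6, where 0.1 is the smallest that 3 against 3 allows). Without runner C the difference was -0.012.

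**Figure D3:**
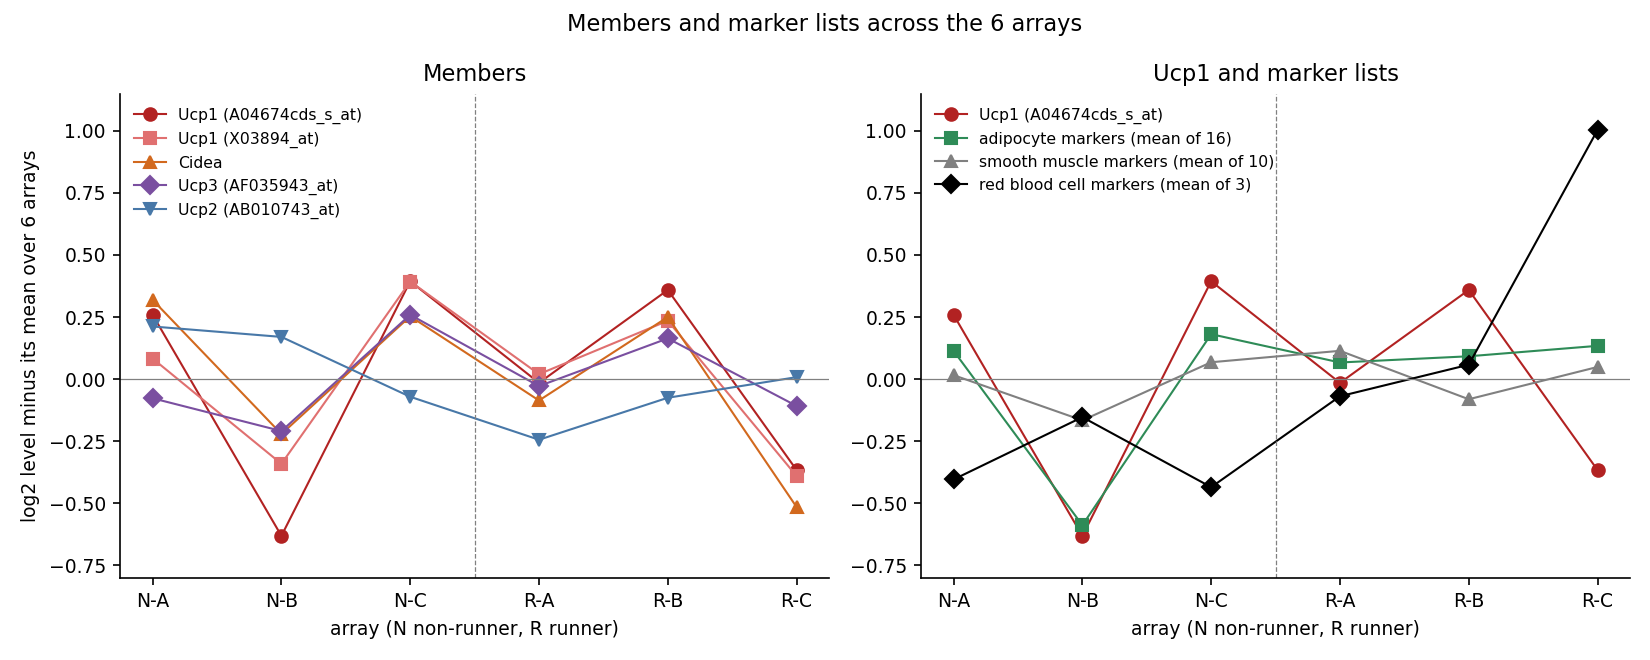
Log2 level of each gene or list minus its mean over the 6 arrays (N, non-runner; R, runner). The left panel shows Ucp1, Cidea and Ucp3 low on N-B and R-C, with Ucp2 AB010743_at lowest on R-A. For Ucp3 AF035943_at the level on R-C (-0.108) is close to that on N-A (-0.077). The right panel shows Ucp1 with the mean of 16 adipocyte, 10 smooth muscle and 3 red blood cell markers. The adipocyte mean is low on N-B (-0.59) but not on R-C (0.13).

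Some other markers of brown fat were low in the same pools. The low pools were chosen after the Ucp1 values were seen, so what follows is a description. Cox8b, a muscle and brown fat form of a cytochrome c oxidase subunit, measured 334.9, 168.6 and 341.5 in non-runners A, B and C and 366.2, 361.9 and 177.9 in runners in probe set X64827cds_s_at. It was lowest where Ucp1 was lowest. Its other probe set, U40836mRNA_s_at, was low only on non-runner B (111.9), with 259.4 on runner C. Cpt1b is the muscle and brown fat form of the enzyme that admits long-chain fatty acids to mitochondria. Its probe set D43623_g_at measured 344.7, 100.2 and 300.6 in non-runners and 266.2, 296.8 and 179.3 in runners. Its other probe set, D43623_at, was also lowest on non-runner B (183.5) and runner C (188.6), but runner A was close to them (192.2).

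Adrb3, the beta-adrenergic receptor of fat cells, was lowest on runner A. It measured 141, 145.6 and 192.9 in non-runners and 129.6, 154.5 and 157.7 in runners. Fabp3, a fatty acid binding protein of heart, muscle and brown fat, measured 218.2, 77.2 and 153.3 in non-runners and 84.4, 103 and 90.7 in runners, and the lowest array was again non-runner B. Of the brown fat markers looked for, Prdm16, Ppargc1a and Cox7a1 had no probe set with a single symbol and were not analysed here.

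Many genes of mitochondrial fat oxidation had their lowest values on the pools where Ucp1 was low; the counts are a description, and the difference between roles was not tested. Non-runner B and runner C held the lowest values, after normalization, for 10 of 14 such genes (71.4%), against 7.02% of all 5244 probe sets tested. In the deposited intensities the counts were 10 of 14 and 6.03%. Among the members it was 5 of 7, with Ucp1 A04674cds_s_at counted although it chose the arrays, and 4 of 7 in the deposited intensities, where AF035943_at of Ucp3 left the count. Acadl, a long-chain acyl-CoA dehydrogenase, measured 616.5, 456.9 and 698.3 in non-runners and 607.3, 548.3 and 433.1 in runners. Hadhb, a subunit of the trifunctional protein of beta-oxidation, measured 647.6, 418.8 and 670.9 in non-runners and 688.7, 678.3 and 553.2 in runners. The count was 2 of 4 for tested brown fat markers other than the members (Cox8b and Cpt1b), 2 of 6 for thyroid hormone handling, 5 of 18 for respiratory chain and heat genes, 2 of 10 for fat fuel supply, 1 of 9 for transcription factors and 1 of 10 for adrenergic genes. It was 3 of 16 for adipocyte markers, 1 of 6 for macrophage markers and 0 of 10 for smooth muscle markers.

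Skeletal and heart muscle also use Ucp3, Cpt1b and Cox8b, so their markers were read on the same arrays. Skeletal muscle markers summed to 477 to 654 in non-runners and 407 to 566 in runners, with 3 of 11 above the control level on all arrays, Myh1 and Acta1 the brightest. Tnni2, Myh2, Myh4, Pvalb and Tnnc2, of fast muscle fibres, were under it on all arrays. The sum was 477, 556 and 654 on non-runners A, B and C and 445, 407 and 566 on runners A, B and C. It was lowest on runner B, where Ucp1 was high. It was highest on non-runner C, where Ucp1 A04674cds_s_at and Ucp3 AF035943_at were highest. On non-runner B and runner C, where Ucp1 was low, the sum was not low. The part of muscle in these levels was not tested. Of 10 heart muscle markers, 8 were under the control level on all arrays, Myh6, Nppa and Actc1 among them, and Myl7 and Myl2 were above it on 4 arrays each. Macrophage markers, led by Lyz2 and Cd74 and read because immune cells express Ucp2, summed to 1445 to 1723 in non-runners and 1337 to 1761 in runners. The sum was 1685, 1723 and 1445 on non-runners A, B and C, where Ucp2 AB010743_at was at 398.5, 384.3 and 326. On runners A, B and C it was 1337, 1761 and 1605, with that probe set at 296.9, 330.9 and 339.4. Ucp2 AB005143_s_at was at 95.3, 61.7 and 85.8 on non-runners and 75.5, 90.3 and 101.6 on runners. The part of macrophages in the Ucp2 level was not tested.

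Across the thermogenic pathway, 76 of 90 listed genes were measured and 67 tested, 1 probe set each, the brightest of a gene. Of these, 0 passed limma's test at an adjusted p under 0.05. The fitted difference was above 0 for 36 and below for 31, with a median of 0.011 on the log2 scale. At an unadjusted p under 0.05, 1 was higher and 5 lower, 8.96% in all, against 3.87% higher and 4.21% lower of all probe sets. Groups did not overlap for 11 of 67, or 16.4%, against 14.9%.

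Adrenergic input gave a median of -0.056 over 10 genes. Th, tyrosine hydroxylase of the sympathetic nerves that drive brown fat, measured 101.7, 73.9 and 72 in non-runners and 36.6, 68.8 and 29.8 in runners. Its values did not overlap between groups (log2 difference -0.93 ± 0.31 SE, limma adjusted p = 0.564), and runners A and C were under the control level. Snap25, another marker on the sympathetic nerve list, did not overlap either. It measured 49.6, 38.2 and 39.8 in non-runners and 28.2, 38 and 29.2 in runners, above the control level on non-runner A only. Its log2 difference was -0.43 ± 0.18 (SE, limma adjusted p = 0.5965). The remaining tested nerve genes overlapped: Npy, a neuropeptide, differed by -0.083, Slc6a2, the noradrenaline transporter, by -0.030, and Syp, a synaptic vesicle protein, by 0.33 (log2). Groups thus did not overlap for 2 of 5 tested nerve genes (40%), against 14.9% of all probe sets. Dbh, which makes noradrenaline, was under that level on all arrays, as was Adrb1. Gnas, the stimulatory G protein subunit, measured 4503.7, 4623.8 and 4554.4 in non-runners and 3332.3, 3763.3 and 3396.7 in runners (-0.25 ± 0.14 SE, adjusted p = 0.692), and its groups did not overlap either. Prkaca, the catalytic subunit of protein kinase A, differed by 0.21 ± 0.17 (log2, SE), with overlap. Of the 10 tested genes of this role, 2 did not overlap (20%), Th and Gnas.

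Thyroid hormone genes, which would bear on Dio2, had a median of 0.070 over 6 genes and 0 without overlap. Thra, the thyroid hormone receptor alpha, measured 389.3, 333.3 and 411.9 in non-runners and 352, 334.2 and 408.7 in runners. Rxrg, a retinoid X receptor that pairs with it, measured 123.3, 69.3 and 150.5 in non-runners and 95.7, 92.9 and 104.3 in runners. Dio3, the deiodinase that inactivates thyroid hormone, measured 102.9, 101.5 and 106.9 in non-runners and 114.4, 105.5 and 95.5 in runners. Dio1 was under the control level on all arrays.

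Transcription factors gave the lowest median of the 6 roles, -0.25 over 9 genes. Nr4a1, an orphan nuclear receptor induced by adrenergic signals, measured 680.4, 1428.7 and 760.1 in non-runners and 736.7, 751.4 and 713.9 in runners, with non-runner B standing apart. Cebpb, a factor of early fat cell differentiation, measured 533, 443.3 and 427.4 in non-runners and 444.2, 428.9 and 383.8 in runners. Nr4a3, Ppard and Cebpd did not overlap between groups, 3 of the 9 tested (33.3%), against 14.9% of all probe sets. Their log2 differences were -0.38, -0.38 and -0.61, with adjusted p from limma of 0.612, 0.586 and 0.52. Ppard and Cebpd are named after their values were seen. Pparg, the master factor of fat cells, differed by 0.0059 ± 0.27 (SE).

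Fat fuel supply had a median of 0.15 over 10 genes. Lpl measured 839.2, 750.4 and 868 in non-runners and 608.9, 594.1 and 671.1 in runners, and Fabp4, which carries fatty acids in fat cells, 519.5, 403.6 and 532.5 against 753.9, 646.4 and 628.1. Neither overlapped between groups, and the directions were opposite, with adjusted p from limma of 0.582 and 0.521. Slc27a1 of this role did not overlap either. It measured 349.2, 341.8 and 378 in non-runners and 421.7, 378.8 and 440.6 in runners (limma adjusted p = 0.729). Groups thus did not overlap for 3 of 10 tested (30%), against 14.9% of all probe sets. Lipe, hormone-sensitive lipase, measured 717.4, 408.5 and 612.9 in non-runners and 629.7, 540.7 and 723.1 in runners. Fat oxidation had a median of 0.10 over 14 genes and the respiratory chain 0.037 over 18. Groups did not overlap for 1 (7.14%) and 2 (11.1%) of them. Acaa2, the mitochondrial thiolase, differed by -0.059 ± 0.15 and Cox8a, the common form of the subunit that Cox8b replaces, by 0.026 ± 0.14 (log2, SE).

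**Figure D4:**
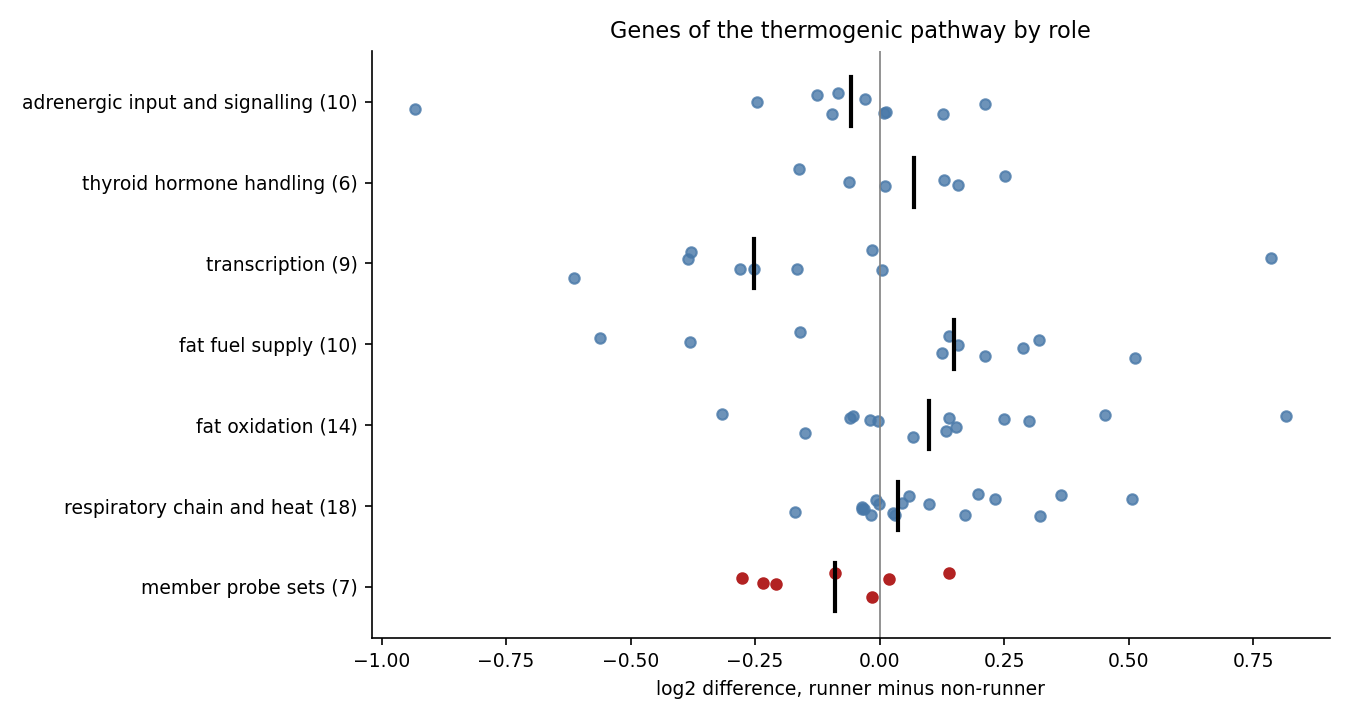
Log2 difference, runner minus non-runner, of each tested gene of the thermogenic pathway by role (blue) and of the 7 member probe sets (red), with the median as a black bar and the number tested in parentheses. Medians run from -0.25 for transcription factors to 0.15 for fat fuel supply, and the member median is -0.090.

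By Pearson r of log2 values over the 6 arrays, among 4322 tested probe sets with a single symbol, the genes most like Ucp1 A04674cds_s_at were Sord (0.981), Gstk1 (0.977), Alas1 (0.974), Crem (0.970), Suclg1 (0.967) and Vegfa (0.965). With 6 arrays and so many probe sets, values of this size are found for many patterns, and no test is attached. Gstk1, a mitochondrial and peroxisomal glutathione transferase, measured 199.3, 108.8 and 242.6 in non-runners and 171.2, 234.3 and 111.4 in runners, in the same order of arrays as Ucp1. Alas1, the first enzyme of heme synthesis, measured 55.8, 31.2 and 60.6 in non-runners and 49.7, 70.3 and 41.4 in runners. Suclg1, a subunit of succinyl-CoA ligase of the citric acid cycle, ran from 273.9 on non-runner B to 356.9 on runner B. Vegfa lay under the control level on all arrays.

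The genes most like Cidea were Fbp2 (0.994, under the control level on all arrays), Med25 (0.984) and Pex11a (0.975), a peroxisome division protein. Those most like Ucp2 AB010743_at were Crlf2 (0.983), Lamp2 (0.982), a lysosomal membrane protein, and Glycam1 (0.976, under the control level on all arrays). Those most like Ucp3 AF035943_at were Ptp4a2 (0.985), Wdfy1 (0.975) and Actn2 (0.941, under the control level on all arrays).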

How the data were processed

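Total RNA of rat aorta was measured on 6 Affymetrix arrays, 3 per group, each a pool of 3 aortae. The authors deposited 1 linear intensity per probe set and array; the scanner software was not given in the sources used, and detection calls were not used here. From the values, each array had been scaled to a mean of about 100.1 without its highest and lowest 2% of probe sets. Gene symbols came from the platform annotation: 7006 probe sets had 1 symbol, 308 several and 1426 none, beside 59 controls. Intensities were analysed as log2(intensity + 2.4), the 10th percentile of positive values, so fold changes of dim genes are understated. Array medians differed by up to 1.13 times and were quantile normalized. Controls and the dimmest 40% were left out, and 5244 probe sets were fitted with limma 3.58.1 under R 4.3.3 in a two-sided test, adjusted by Benjamini-Hochberg; 7 of the 8 member probe sets passed that filter. The 95% intervals are from that fit. Overlap of a probe set between groups was read on the deposited intensities, while the fitted differences are after quantile normalization. The control level is the 95th percentile of 19 yeast and sense-strand control probe sets. The number of arrays limits the precision. The fit was tested on simulated data.

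The members and gene lists were chosen with earlier results of these data known. Named were all member probe sets, the up to 3 brightest genes of a role and the 2 brightest of a marker list. The genes with the highest r to a member (6 for Ucp1, 3 for others) were named too. Besides these, Cox8b, Cpt1b, Fabp3, Slc6a2, Syp, Snap25, Dbh, Adrb1, Dio1, Ppard, Cebpd, Cebpa, Pparg, Cd36, Acadl and dim markers were named after their values were seen. So were Slc27a1, Lep, Dgat1 and Agt. Exact permutation tests used scipy 1.17.1, and figures matplotlib 3.10.9.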

Additional observations from a re-analysis of the deposited data

How the results depend on the processing

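None of the 118 member values under the alternatives passed limma's test (smallest adjusted p = 0.414), and 12 changed sign. For Ucp1 A04674cds_s_at the log2 difference ran from -0.29 to -0.014 with all 6 arrays and from -0.33 to 0.18 as each array was left out; for X03894_at these ranges were -0.25 to -0.084 and -0.28 to 0.084 (0.084 without non-runner C, 0.082 without runner C). For Cidea they were -0.36 to -0.23 and -0.42 to -0.035, with 0 sign changes. Ucp3 AF035943_at turned to -0.020 with median centring and -0.091 with array quality weights, and single arrays moved it between -0.081 and 0.15. Ucp3 AF030163_s_at ran from -0.58 to -0.21 with all 6 arrays and from -0.54 to -0.13 as arrays were dropped. Ucp2 AB005143_s_at turned to -0.12 with the beta-actin ratio as a covariate, and lay between -0.044 (without non-runner B) and 0.26 on leaving out arrays. Over all probe sets, 0 were called higher and 0 lower in each alternative with 6 arrays (298 to 617 at an unadjusted p under 0.05), and leaving out an array gave 0 to 4 higher and 0 to 1 lower (4 higher without non-runner C, 1 and 1 without non-runner A). Ucp1 relative to adipocyte markers lay between -0.40 and -0.012 without single arrays. The cause of these changes was not tested. With the chip letter as a replicate block, the estimates cannot move, since each group has 1 array of each letter. The limma adjusted p was then 0.992 for Ucp1 A04674cds_s_at (-0.014) and 0.87 for Cidea (-0.23), and 359 probe sets in place of 424 had an unadjusted p under 0.05. Arrays of the same letter had correlations of their deviations of -0.086, -0.041 and -0.050, so no pattern shared by letter was seen. Whether same-letter arrays were handled together cannot be told from these values. The alternatives for the correlations were chosen after the data were seen. Ucp3 AF030163_s_at could not be fitted with the dimmest 60% left out, and values under the control level, all of Dio2, limit what can be said of it.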
